A study of Oryza sativa with 4 samples.

Results

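Panicles of rice carrying an RFL dsRNAi construct were set directly against panicles carrying an RFL antisense construct, with the transgenic RNA of each 2-colour array as the sample. The comparison uses the transgenic channel of every array, which the labels give as channel 2, so 2 dsRNAi channels and 2 antisense channels were taken out of the 8 channels of the series. The other 4 channels hold wild type TP309 panicle RNA and serve here as values measured on the same arrays. In both constructs replicate 1 carries the transgenic RNA in Cy5 and replicate 2 in Cy3. The hybridisations are described as of branching panicles, the stage at which the inflorescence forms its branches, although among the transgenic RNAs only that of antisense replicate 2 carries the stage in its own label. The cultivar of the transgenic plants, the promoters of the constructs, the number of transgenic lines and the number of plants per pool are not given in the sources used here. The design describes independent RNA pools per hybridisation, while the sample names mark separate pools only for the dsRNAi pair. Spread between the channels of a group may therefore be technical. The p-values and standard errors (SE) measure that spread, pooled over all 8 channels with the wild type included.

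LEAFY is a transcription factor that, in Arabidopsis, makes young lateral meristems develop as flowers, and RFL is its orthologue in rice. There it is known for its part in panicle branching and in the change from branch to spikelet formation. Both constructs are meant to lower RFL. A dsRNAi construct makes a hairpin RNA that is cut into small RNAs, and an antisense construct makes RNA that pairs with the transcript. Of 21495 probes that are not controls, 0 name RFL, LEAFY or FLORICAULA, so the degree of knockdown in either construct was not measured here.

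Scan batch coincides with construct. Both dsRNAi arrays were scanned on another day than both antisense arrays. They were extracted with another version of the scanner software (9.1.3.1, against 8.1.1.1 for antisense arrays). The wild type pools also belong to 1 construct's arrays each. A difference of construct, of panicle sample and of scan batch therefore cannot be told apart in the transgenic channels alone, and the difference between the wild type channels of the same arrays is given beside most of the transgenic differences. Between 16106 and 18191 probes were well above background in a transgenic channel and between 14722 and 17270 in a wild type channel, and 17997 probes were tested.

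The 4 transgenic channels resembled each other closely. Across the tested probes, the channel signals (log2 after normalization) correlated at r = 0.989 between the dsRNAi channels and 0.994 between the antisense channels, and at 0.982 to 0.986 between a dsRNAi and an antisense channel. Wild type channels of the dsRNAi arrays correlated with those of the antisense arrays at 0.936 to 0.947, while the values within each set of arrays were 0.991 and 0.988. Antisense transgenic channels correlated at 0.937 to 0.947 with the wild type channels of the dsRNAi arrays and at 0.894 to 0.917 with the wild type channels of their own arrays. The dsRNAi transgenic channels correlated at 0.944 to 0.958 with the wild type channels of their own arrays. With the wild type channels of the antisense arrays they correlated at 0.892 to 0.907. These correlations run across probes, which are not independent replicates. The median size of the difference (log2, dsRNAi minus antisense) was 0.154 in the transgenic channels and 0.289 in the wild type channels.

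In the transgenic channels, 441 of 17997 probes passed (limma's separate-channel fit, Benjamini-Hochberg adjusted p under 0.05), which is 2.45% of those tested. Of these, 238 were higher in dsRNAi panicles (1.32%) and 203 lower (1.13%). Higher calls were the larger ones, with a median log2 difference of 0.91, whereas the lower calls had a median of -0.74. By at least 2-fold, 99 probes were higher (0.550%) and 18 lower (0.100%). At an unadjusted p under 0.05 there were 3096 probes (17.2%). The 2 dsRNAi values and the 2 antisense values did not overlap for 441 of the 441 called probes, against 49.3% of all probes tested. The calls rest on these same values, so this is no separate support. In the wild type channels of the same arrays, 2960 probes were higher on dsRNAi arrays (16.4%) and 2857 lower (15.9%).

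The count of calls depended on the setting. It was 78 without dsRNAi replicate 2, 117 without dsRNAi replicate 1, 205 without antisense replicate 2 and 297 without antisense replicate 1, 22 when a dye term was added to the fit and 21 when arrays were centred on their median in place of loess. Of the 80 called cDNAs named by a fixed rule, 11 passed with the dye term and 9 passed in each alternative in which they were tested. Every one of the 441 called differences kept its sign under each of the 17 alternative settings in which the probe was tested. Settings that changed only the model or the probe filter left the differences as they were, so a sign could turn only under the others.

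Of the 441 called probes, 255 were also called in the same direction in the wild type channels, 53 in the opposite direction, and 133 were not called there. Among the probes called with at least 2-fold, 28 higher and 6 lower ones had a wild type difference within 0.5 (log2) of 0. In a further 49 higher and 6 lower ones the wild type channels had moved the same way by at least 2-fold, and in 9 higher and 1 lower they were called the opposite way. Of the 34 with little wild type difference, 27 higher and 6 lower ones also passed in the direct test of the transgenic difference against the wild type difference. Because the 34 were chosen by these same differences, passing was largely set by the choice and is no separate support. Over all probes, that test called 3340 (18.6%).

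**Figure D1:**
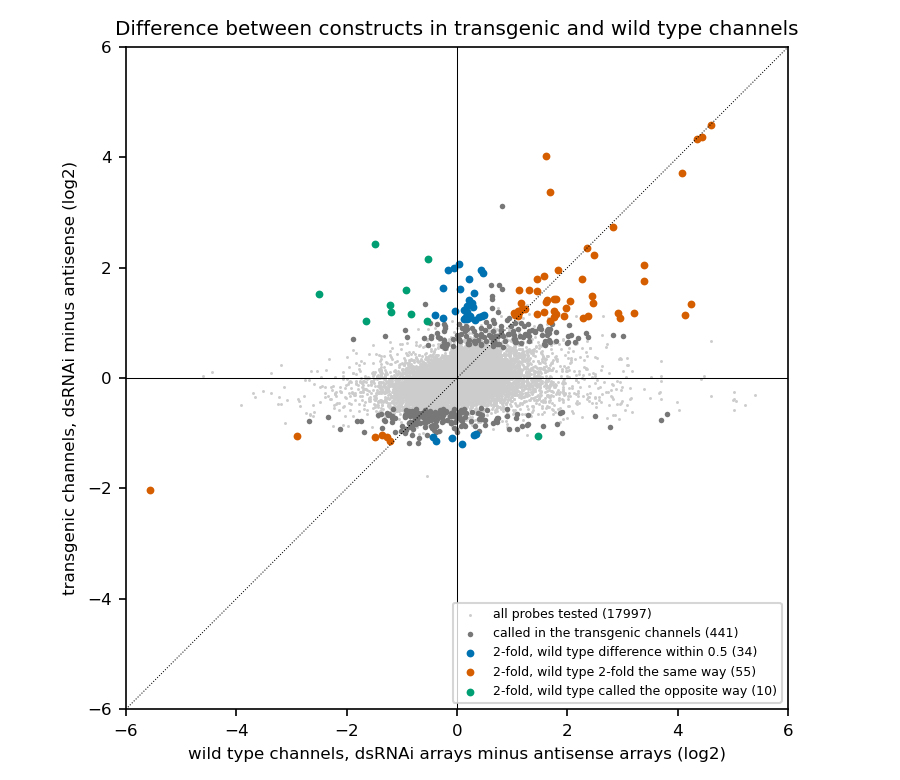
Each point is a probe, with the wild type difference between dsRNAi arrays and antisense arrays on the x axis and the transgenic difference on the y axis (both log2, dsRNAi minus antisense). Probes called with at least 2-fold are coloured by their wild type difference (34 within 0.5, 55 the same way, 10 opposite), and the dotted line marks equal differences in both channels. The cloud is wider along x than along y.

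The largest difference among cDNAs described by a named protein was that of PBZ1, a probenazole-inducible protein of the PR-10 type that rice makes in response to pathogens and to the resistance inducer probenazole. The PBZ1 cDNA AK099157 had log2 signals of 11.71 and 11.48 in dsRNAi panicles, against 7.61 and 7.52 in antisense panicles. It was 16.4-fold higher in dsRNAi panicles (log2 difference 4.03 ± 0.14 SE, limma adjusted p = 3.32e-07). A separate PBZ1 cDNA, AK071613, had 13.77 and 13.99 in dsRNAi panicles and 10.50 and 10.50 in antisense panicles (3.37 ± 0.15, limma adjusted p = 1.88e-06). Both channels of dsRNAi panicles lay far above both of antisense panicles for each cDNA. Their wild type channels were also higher on dsRNAi arrays, by 1.61 and 1.68, and the transgenic difference exceeded that by 2.42 (limma adjusted p = 1.43e-05) and 1.70 (limma adjusted p = 0.000141).

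A laccase and a catalase were each well above background in dsRNAi panicles and dim in antisense panicles. AK103094, described as a laccase LAC2-1 of ryegrass, had 9.16 and 9.34 in dsRNAi panicles and was not well above background on either antisense array, with 6.14 and 6.11. It was at least 8.30-fold higher in dsRNAi panicles (limma adjusted p = 4.08e-06), with a wild type difference of 0.82. Under the alternatives its log2 difference ran from 2.795 to 5.879. Laccases are copper oxidases that couple lignin monomers in the cell wall. The catalase cDNA AK099923, for an enzyme that breaks down hydrogen peroxide, had 8.32 and 8.20 in dsRNAi panicles and 6.09 and 6.31 in antisense panicles. It was not well above background on either antisense array either, and was at least 4.18-fold higher in dsRNAi panicles (limma adjusted p = 0.000107). Its wild type channels differed by 0.03, and the transgenic difference exceeded that by 2.03 (limma adjusted p = 4.98e-05). A bound of this kind sets the mean of dsRNAi channels against a floor for each antisense array. The floor is the larger of the probe's own signal and the lowest signal that still counted as well above background. Such a bound is an estimate under the main setting and not a confidence limit, and some alternatives gave smaller differences. For the catalase the floor was the probe's own signal on both arrays, so its bound equals the fitted fold. Its log2 difference ran from 1.80 to 4.96 under the alternatives.

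OsGSTU12 (AK063773), a glutathione S-transferase that conjugates glutathione to reactive compounds, had 9.21 and 8.81 in dsRNAi panicles and 7.02 and 6.99 in antisense panicles. It was 4.01-fold higher in dsRNAi panicles (2.00 ± 0.19, limma adjusted p = 0.000616), with a wild type difference of -0.05. AK110700, described as the cowpea protein CPRD12, had 8.74 and 8.79 in dsRNAi panicles against 6.51 and 7.09 in antisense panicles, a difference of 1.96 ± 0.19 (limma adjusted p = 0.000659). Its wild type channels lay between 8.38 and 8.84 on all 4 arrays, close to the dsRNAi panicles and above the antisense panicles. Cowpea CPRD12 is known as a drought-inducible gene.

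Of 145 tested peroxidases and antioxidants, 8 were higher and 3 lower in dsRNAi panicles (7.59%, beside 2.45% of all probes). The median difference of the list was -0.03, beside -0.04 over all probes. The wild type channels called 48 of the 145 higher and 18 lower on dsRNAi arrays, beside 16.4% and 15.9% of all probes. Glutathione S-transferases as a group, chosen after their values were seen, held 5 of the higher calls among 32 tested cDNAs, with 0 lower. In the wild type channels 11 of these 32 were called higher and 4 lower on dsRNAi arrays. Beside OsGSTU12, the called members differed by 1.14, 1.09, 1.04 and 0.68, with wild type differences of 4.13, 2.96, 0.90 and 0.21. The direct test of the transgenic against the wild type difference called 13 of the 32, beside 18.6% of all probes. The lower calls of the peroxidase and antioxidant list included AK103756, described as a thioredoxin-like protein (-0.87 ± 0.17), and AK071181, described as a putative peroxidase of potato (-0.84 ± 0.13). AK071181 had 12.73 and 12.82 in dsRNAi panicles and 13.62 and 13.62 in antisense panicles, while its wild type channels were higher on dsRNAi arrays by 0.51.

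Among 92 defence-type proteins, 4 were higher and 2 lower in dsRNAi panicles (6.52%, beside 2.45% of all probes), with a median of -0.06. Beside PBZ1, the list named AK059767, described as a bulb chitinase of tulip, at 7.62 and 7.37 in dsRNAi panicles and 6.31 and 6.10 in antisense panicles. The difference was 1.29 ± 0.15 (limma adjusted p = 0.00235), with 1 of the 2 antisense channels well above background and a wild type difference of 0.29, and it reached 3.07 under the alternatives. The lower calls were AK106319, a rice chitinase (-0.63 ± 0.14, with a wild type difference of 1.86), and AK110902, described as a beta-1,3-glucanase (-0.61 ± 0.13). Chitinases and glucanases break down fungal cell walls.

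Cytochrome P450 enzymes oxidise hormones, phenolics and other small molecules. They gave 6 higher calls and 1 lower among 85 tested (8.24%, beside 2.45% of all probes), with a median of -0.04. AK066760, described as a P450 of ryegrass, had 10.22 and 10.51 in dsRNAi panicles and 7.84 and 8.03 in antisense panicles, which is 5.40-fold higher in dsRNAi panicles (2.43 ± 0.15, limma adjusted p = 3.07e-05). Its wild type channels ran the opposite way, at 8.68 and 8.92 on dsRNAi arrays and 10.27 and 10.31 on antisense arrays. The transgenic difference exceeded the wild type difference by 3.92 (limma adjusted p = 1.88e-06). AK071864, also described as a ryegrass P450, was higher by 1.42 ± 0.18 (limma adjusted p = 0.00325), with a wild type difference of 0.22 and 1 of the 2 antisense channels well above background, and it reached 3.33 under the alternatives.

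**Figure D2:**
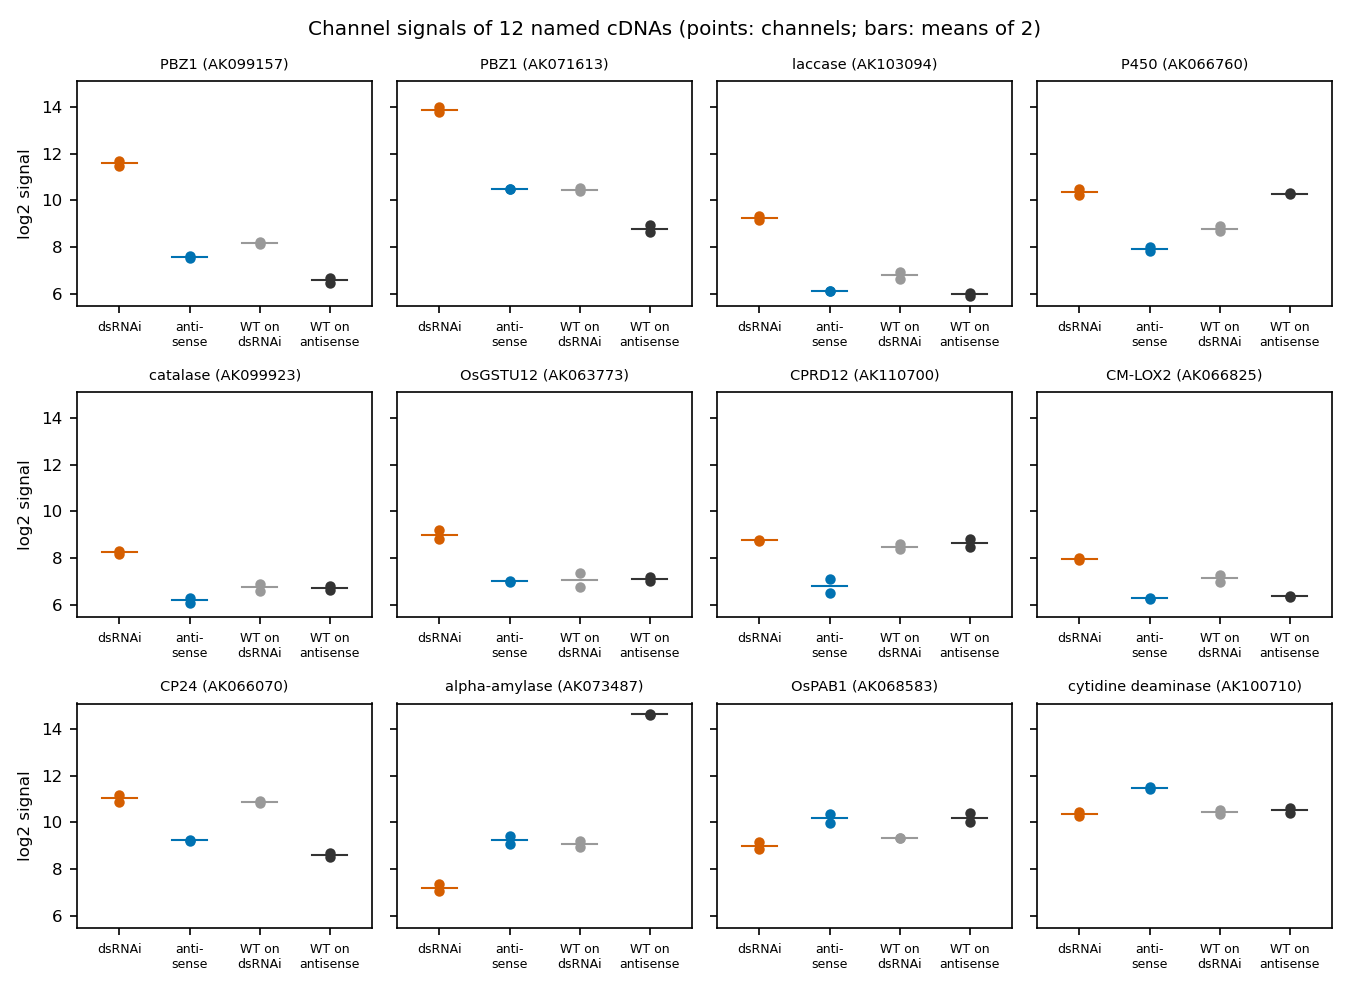
Log2 channel signals of 12 named cDNAs, with a panel for each. From left to right the columns hold dsRNAi panicles, antisense panicles, wild type on dsRNAi arrays and wild type on antisense arrays; points are channels and bars the mean of 2. In each panel the dsRNAi points lie wholly above or wholly below the antisense points, and the wild type columns differ from panel to panel.

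Photosynthesis genes gave the highest share of calls among the 48 gene lists. Of 61 tested cDNAs, 28 were higher in dsRNAi panicles and 0 lower, so 45.9% were called, beside 1.32% of all probes called higher. The median difference over the 61 was 0.62, beside -0.04 over all probes, and 49 of the 61 were above 0. The list was found by words in the descriptions. It therefore also holds ferredoxin and ferredoxin reductase cDNAs described as mitochondrial, root or non-photosynthetic, none of which was called. Summed over the list, the signal on a linear scale was 101155 and 97703 in dsRNAi panicles, against 66020.0 and 64717 in antisense panicles. The wild type channels of the same arrays moved likewise, at 120031 and 121835 on dsRNAi arrays against 62098.5 and 65249.5 on antisense arrays. In them 33 members were called higher and 3 lower, beside 16.4% and 15.9% of all probes, with a median of 0.65. In bulk tissue, more green cells and more of these RNAs per cell cannot be told apart.

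Light-harvesting proteins bind chlorophyll and pass light energy to the photosystems. Among 15 light-harvesting cDNAs, 9 were higher in dsRNAi panicles, with a median of 0.97. The largest was CP24 (AK066070, maize Lhcb6-1), a minor antenna of photosystem II, at 10.89 and 11.18 in dsRNAi panicles and 9.22 and 9.24 in antisense panicles. It was 3.49-fold higher in dsRNAi panicles (1.80 ± 0.14, limma adjusted p = 0.000264), and its wild type channels were higher on dsRNAi arrays by 2.27. AK061619, a type I chlorophyll a/b binding protein of rice, had 11.84 and 11.23 in dsRNAi panicles and 10.03 and 9.55 in antisense panicles (1.75 ± 0.29, limma adjusted p = 0.0184). In its wild type channels the difference was 3.38, and the test of the 2 differences against each other passed with -1.63 (limma adjusted p = 0.0108). The subgroups of photosynthesis genes given here were formed, and members of them picked, after the values were seen.

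Photosystem I subunits were called higher in 6 of 8 cases. AK058788, described as the PSK-I subunit of barley, differed by 1.43 ± 0.17, with 11.00 and 11.47 in dsRNAi panicles and 9.78 and 9.83 in antisense panicles, and by 1.76 in the wild type channels. Photosystem II and oxygen-evolving subunits were called higher in 5 of 10 cases. One of these, AK058793, a 17 kDa protein of the oxygen-evolving complex that helps split water, had 11.34 and 11.36 in dsRNAi panicles and 10.14 and 10.28 in antisense panicles (1.14 ± 0.17). It alone among the 28 was not called higher in the wild type channels, where it differed by -0.40, and its transgenic difference exceeded that by 1.54 (limma adjusted p = 0.00057).

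Smaller groups served carbon fixation and chlorophyll synthesis. Rubisco activase (AK058310, OsrcaA2), which keeps the carbon-fixing enzyme Rubisco active, had 10.13 and 10.29 in dsRNAi panicles and 8.75 and 8.83 in antisense panicles (1.42 ± 0.15, wild type difference 1.63). It was the 1 call among 4 activase and chaperone cDNAs, and the 3 Rubisco subunit-binding chaperones differed by 0.54 (AK061410), 0.21 (AK100602) and 0.24 (AK101334) without passing. NADPH-protochlorophyllide oxidoreductase (AK065236), which makes chlorophyllide in the light, had 12.36 and 12.33 in dsRNAi panicles and 10.85 and 10.85 in antisense panicles (1.49 ± 0.15, wild type difference 2.45). A further cDNA of this enzyme passed (AK068143, 0.78 ± 0.17), and the chlorophyll synthase AK060912 did not (-0.06 ± 0.13). Of 7 Rubisco subunit cDNAs, 2 passed, both for the chloroplast-encoded large subunit (1.04 and 0.95). Ferredoxin, plastocyanin and other electron carriers gave 3 calls among 8, which include a root and a non-photosynthetic ferredoxin that did not pass. Of the 28 called members, 22 had a larger difference in the wild type channels than in the transgenic channels, and 7 passed as smaller in the transgenic channels.

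The median of the photosynthesis list stayed between 0.54 and 0.81 under the alternatives, while its count of higher calls ran from 1 to 32. The count was 7 without dsRNAi replicate 2, 16 without dsRNAi replicate 1, 18 without antisense replicate 2 and 4 with a dye term.

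**Figure D3:**
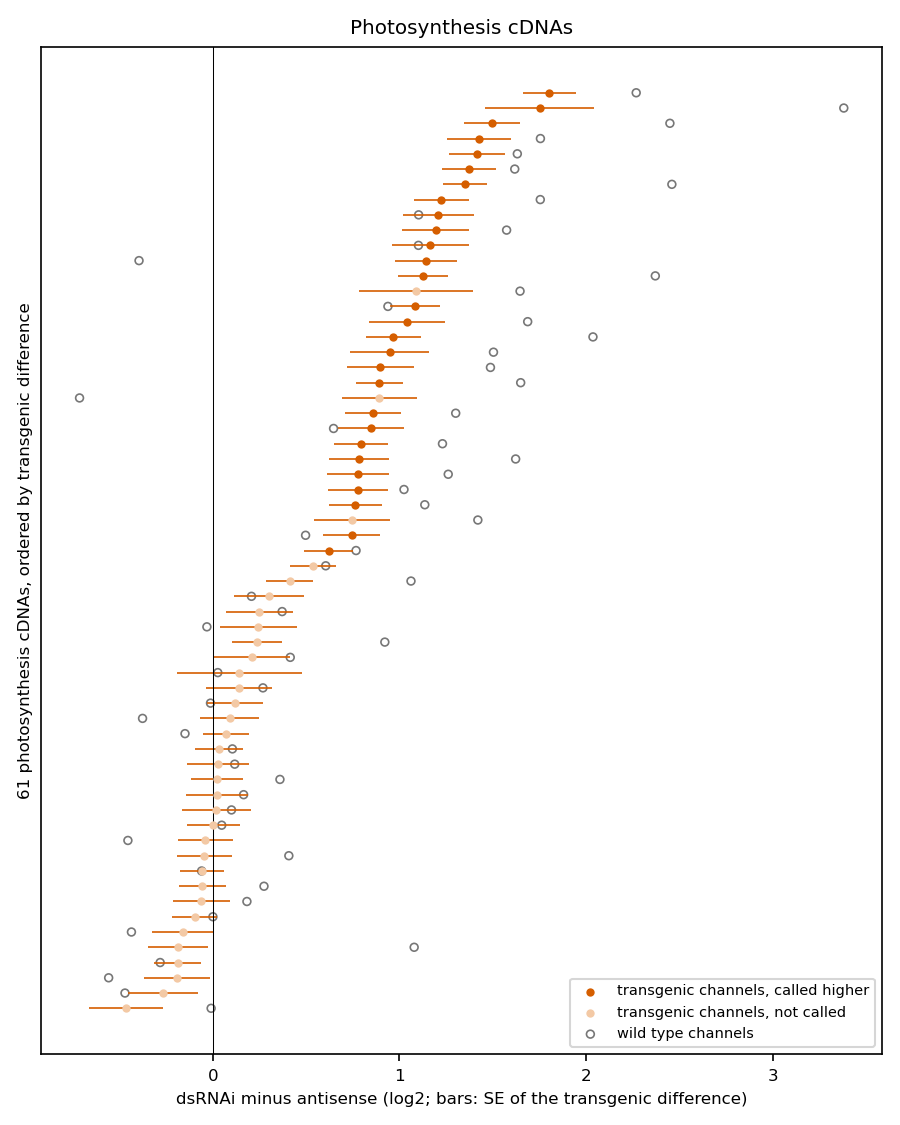
Differences (log2, dsRNAi minus antisense) of the 61 tested photosynthesis cDNAs on the x axis, ordered by the transgenic difference. Filled points with SE bars are the transgenic channels (28 called higher in the darker colour) and open circles are the wild type channels of the same arrays. Most open circles in the upper part lie to the right of the filled points.

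The hormone lists are small, and their shares called stand beside 2.45% of all probes. Jasmonate is made from fatty acids by lipoxygenase and allene oxide synthase. Of 22 tested jasmonate and salicylate cDNAs, 3 were higher in dsRNAi panicles and 0 lower (13.6%), with a median of -0.01. The lipoxygenase CM-LOX2 (AK066825) had 7.99 and 7.94 in dsRNAi panicles and 6.31 and 6.25 in antisense panicles, a difference of 1.69 ± 0.14 (limma adjusted p = 0.000281), with 1 of the 2 antisense channels well above background. Under the alternatives its difference ran from 1.46 to 4.13. Allene oxide synthase (AK066138) differed by 0.76 ± 0.14 and the lipoxygenase AK064795, described from almond, by 0.69 ± 0.12. All 3 were also higher in the wild type channels of dsRNAi arrays, by 0.76, 0.62 and 0.67.

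Gibberellin synthesis begins with a pair of diterpene cyclisations. Of 20 tested gibberellin cDNAs, 2 were higher and 0 lower in dsRNAi panicles. AK072928, described as a copalyl diphosphate synthase, had 7.65 and 7.43 in dsRNAi panicles. On the antisense arrays it was not well above background (6.02 and 5.98), and it was at least 2.64-fold higher in dsRNAi panicles (limma adjusted p = 0.00237). AK100631, described as kaurene synthase A of maize, was at least 1.55-fold higher (limma adjusted p = 0.0345). Their wild type differences were 0.30 and 0.38. Under the alternatives their log2 differences ran from 1.282 to 4.105 and from 0.539 to 2.282. Rice also uses diterpene cyclases of these types for defence compounds.

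Of 26 ethylene cDNAs, 2 were higher and 0 lower in dsRNAi panicles (7.69%). The ethylene-responsive factor ebp-89 (AK073133) had 8.40 and 8.50 in dsRNAi panicles and 6.68 and 7.05 in antisense panicles (1.59 ± 0.16, limma adjusted p = 0.000884). Its wild type channels differed by -0.93, at 8.90 and 9.17 on dsRNAi arrays against 9.82 and 10.11 on antisense arrays. In the cytokinin list 1 of 15 members was called (6.67%). It was AK101107, described as the maize cis-zeatin O-glucosyltransferase, which stores cytokinin as a glucoside, and it was lower in dsRNAi panicles (-0.63 ± 0.12, wild type difference -0.71).

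Phenylpropanoid and lignin enzymes were called higher in 7 of 83 cases and lower in 1 (9.64%, beside 2.45% of all probes), with a median of -0.06. Beside the laccase, AK110682, described as an isoflavone reductase homologue, had 8.24 and 7.63 in dsRNAi panicles and 6.61 and 6.38 in antisense panicles (1.44 ± 0.20, wild type difference 0.64). The lower member was AK070507, described as a flavonol 4-sulfotransferase, at 8.93 and 8.98 in dsRNAi panicles and 9.97 and 9.95 in antisense panicles. The difference was -1.01 ± 0.22 (limma adjusted p = 0.0427). Both transgenic values exceeded the wild type values, which ran from 6.28 to 7.18 on the 4 arrays.

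Cell wall genes gave 3 higher calls and 0 lower among 106 (2.83%), and lipid genes 3 and 1 among 137 (2.92%), both near the 2.45% of all probes. AK071989, described as a cucumber extensin-like protein, a structural wall protein, had 9.32 and 9.38 in dsRNAi panicles and 7.17 and 7.42 in antisense panicles (2.05 ± 0.15, limma adjusted p = 0.000175). The expansin OsEXP6 (AK107698), of a family that loosens walls during growth, differed by 1.17 ± 0.13. In the wild type channels both differed more, by 3.39 and 2.91. The lipid calls included an acyl-CoA synthetase described from rapeseed (AK063337, 1.35 ± 0.16) and the fatty acid desaturase FAD2 described from tung tree (AK070559, 1.23 ± 0.14). Their wild type differences were 0.26 and 0.12, and for each 1 of the 2 antisense channels was well above background. Under the alternatives their differences reached 3.07 and 2.81.

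**Figure D4:**
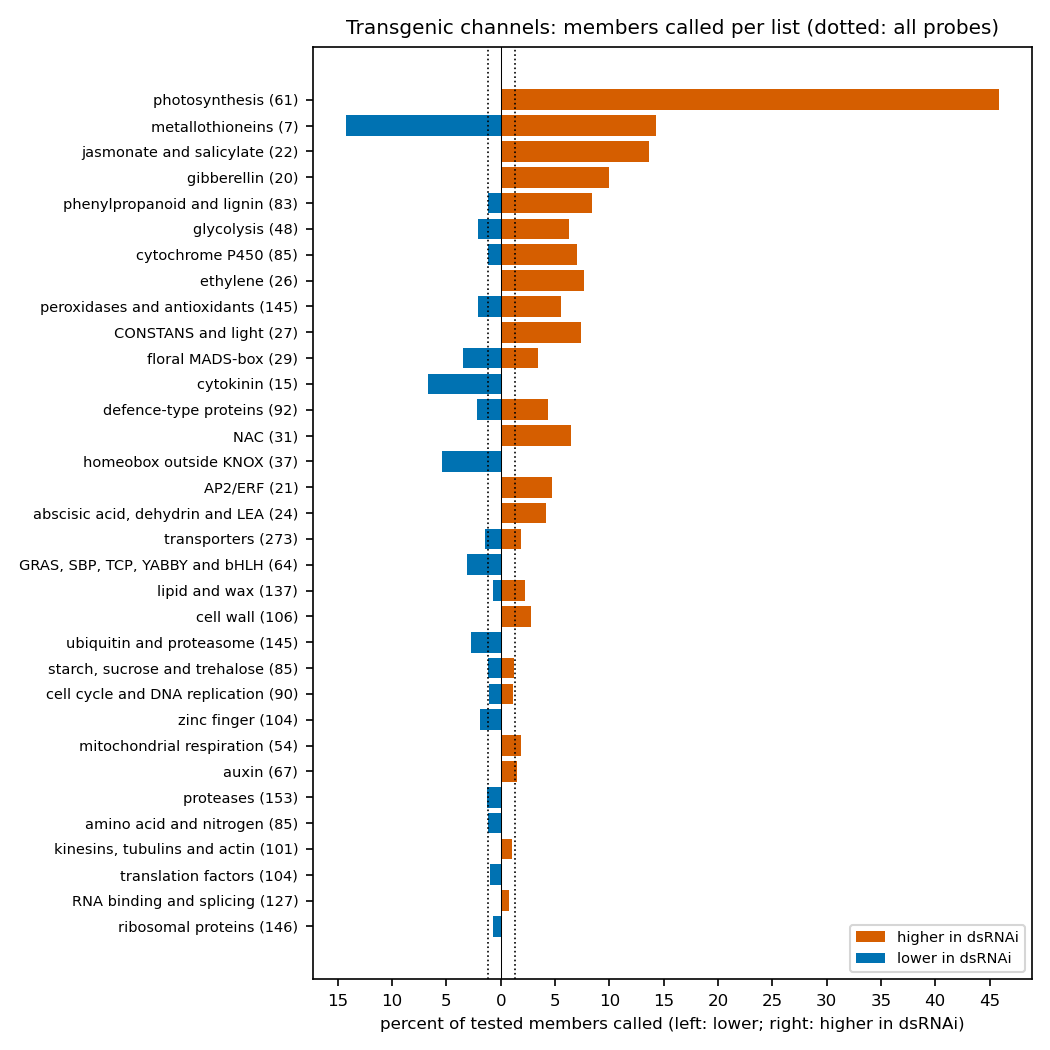
Share of the tested members of each list that was called in the transgenic channels (percent; right of 0 higher, left of 0 lower in dsRNAi panicles), with the number tested in brackets. Lists with no call are left out, and dotted lines mark the shares over all probes (1.32% higher and 1.13% lower). The photosynthesis bar reaches 45.9%.

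Floral MADS-box genes specify spikelet meristems and floral organs. Of 29 tested cDNAs, 1 was higher and 1 lower in dsRNAi panicles (6.90%, beside 2.45% of all probes). The median difference of the 29 was 0.15. MADS4 (AK100233), a gene of the class that specifies lodicules and stamens, had 9.73 and 9.44 in dsRNAi panicles and 8.87 and 8.78 in antisense panicles (0.76 ± 0.14, limma adjusted p = 0.0278). In the wild type channels it differed by -0.48. The lower one was AK067641, a MADS box-like cDNA (clone S11905), with 10.16 and 10.13 in dsRNAi panicles and 10.77 and 10.76 in antisense panicles (-0.62 ± 0.12, limma adjusted p = 0.033).

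Other MADS-box genes did not pass. OsMADS45 (AK100263), of the SEPALLATA-like class, had 10.64 and 10.40 in dsRNAi panicles and 9.72 and 9.55 in antisense panicles (0.89 ± 0.22, limma adjusted p = 0.0659). OsMADS6 (AK069103), an AGL6-like gene of floral meristems, had 13.04 and 12.91 in dsRNAi panicles and 12.38 and 12.40 in antisense panicles (0.59 ± 0.14, limma adjusted p = 0.0572). MADS18 (AK064704) differed by 0.15 and the FDRMADS6 cDNAs AK061899 and AK069331 by -0.15 and -0.24, with wild type differences of -0.88, -0.88 and -1.36. These are AP1-like genes of the inflorescence and floral meristem. MADS1 (AK070981) differed by 0.18, MADS2 (AK070894) by 0.03, MADS3 (AK108568) by 0.59, OsMADS5 (AK064184) by 0.19, OsMADS8 (AK072867) by 0.53 and MADS17 (AK070540) by -0.24. With the dye as a replicate block over the 4 transgenic channels, OsMADS45 (limma adjusted p = 0.00212), OsMADS6 (0.0144), MADS3 (0.0137), OsMADS8 (0.0220), FDRMADS8 (AK062063, 0.61 and 0.0137) and a homologue of wheat WAG (AK111723, 0.45 and 0.0411) passed as higher. AK070205, described from chrysanthemum, passed as lower (-0.56 and 0.0247), in a setting that called 1785 probes in all. Of the 17 alternatives, OsMADS45 passed in 4, OsMADS6 in 3 and each of the other cDNAs that passed with the block in 1. With the dye term their limma adjusted p ran from 0.278 (OsMADS45) to 0.672 (FDRMADS8).

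Of these, OsMADS6, OsMADS8, OsMADS45, MADS4, MADS18 and both FDRMADS6 cDNAs had transgenic differences that passed as more positive than the wild type differences, by 0.72 to 1.41. The MADS box-like AK111859 passed the other way (-0.61). The summed signal of the 29 cDNAs was 69443 and 66351 in dsRNAi panicles and 62694 and 64525 in antisense panicles. In the wild type channels it was 49548 and 51155 on dsRNAi arrays and 72701 and 66677 on antisense arrays. There 2 members were called higher and 8 lower on dsRNAi arrays, beside 16.4% and 15.9% of all probes. Of the 29, 27 were well above background in all 4 transgenic channels.

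KNOX homeobox genes keep meristem cells undifferentiated, apart from class 2 members that are expressed in differentiated tissue. Of the 6 tested cDNAs, 0 were called by limma in the transgenic channels and 2 had an unadjusted p under 0.05, with differences from -0.48 to 0.20. HOS9 (AK111878) had 10.83 and 11.06 in dsRNAi panicles and 11.40 and 11.45 in antisense panicles (-0.48 ± 0.13, limma adjusted p = 0.0821, or 0.0331 with the replicate block). The block was the 1 alternative of 17 in which HOS9 passed. Hos3 (AK111877) had 12.72 and 12.81 in dsRNAi panicles and 12.53 and 12.59 in antisense panicles, and HOS66 (AK060316), of class 2, had 10.94 and 10.90 against 11.28 and 11.08. In the wild type channels 4 of the 6 were called higher on dsRNAi arrays, beside 16.4% of all probes. The HOS66 wild type signals were 9.40 and 9.60 on dsRNAi arrays against 7.21 and 6.40 on antisense arrays, a difference of 2.70. For HOS66, Hos3 and HOS9 the transgenic difference minus the wild type difference was -2.96, -1.37 and -1.02 (log2), each past the threshold.

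The florigen and TFL1 family moves meristems into or holds them from flowering. Of its 8 cDNAs, limma called 0 in the transgenic channels and 0 had an unadjusted p under 0.05. Hd3a cDNAs differed by 0.37 (AK100491), 0.14 (AK073219) and -0.04 (AK072979). The gigantea homologue AK072166 differed by 0.53 (limma adjusted p = 0.0933, or 0.0217 with the replicate block). It too passed in only that 1 of the 17 alternatives. Of the homologues of LHY, a morning gene of the Arabidopsis clock, AK111726 differed by 0.38 in the transgenic channels and by -1.99 in the wild type channels, and AK111893 by -0.02 and -0.36. Argonaute and HEN1 proteins act in small RNA silencing. Of their 12 cDNAs limma called 0, with 2 at an unadjusted p under 0.05 and differences between -0.54 and 0.29. With the replicate block 2 of the 12 were called, beside 1785 of all 17997 probes.

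**Figure D5:**
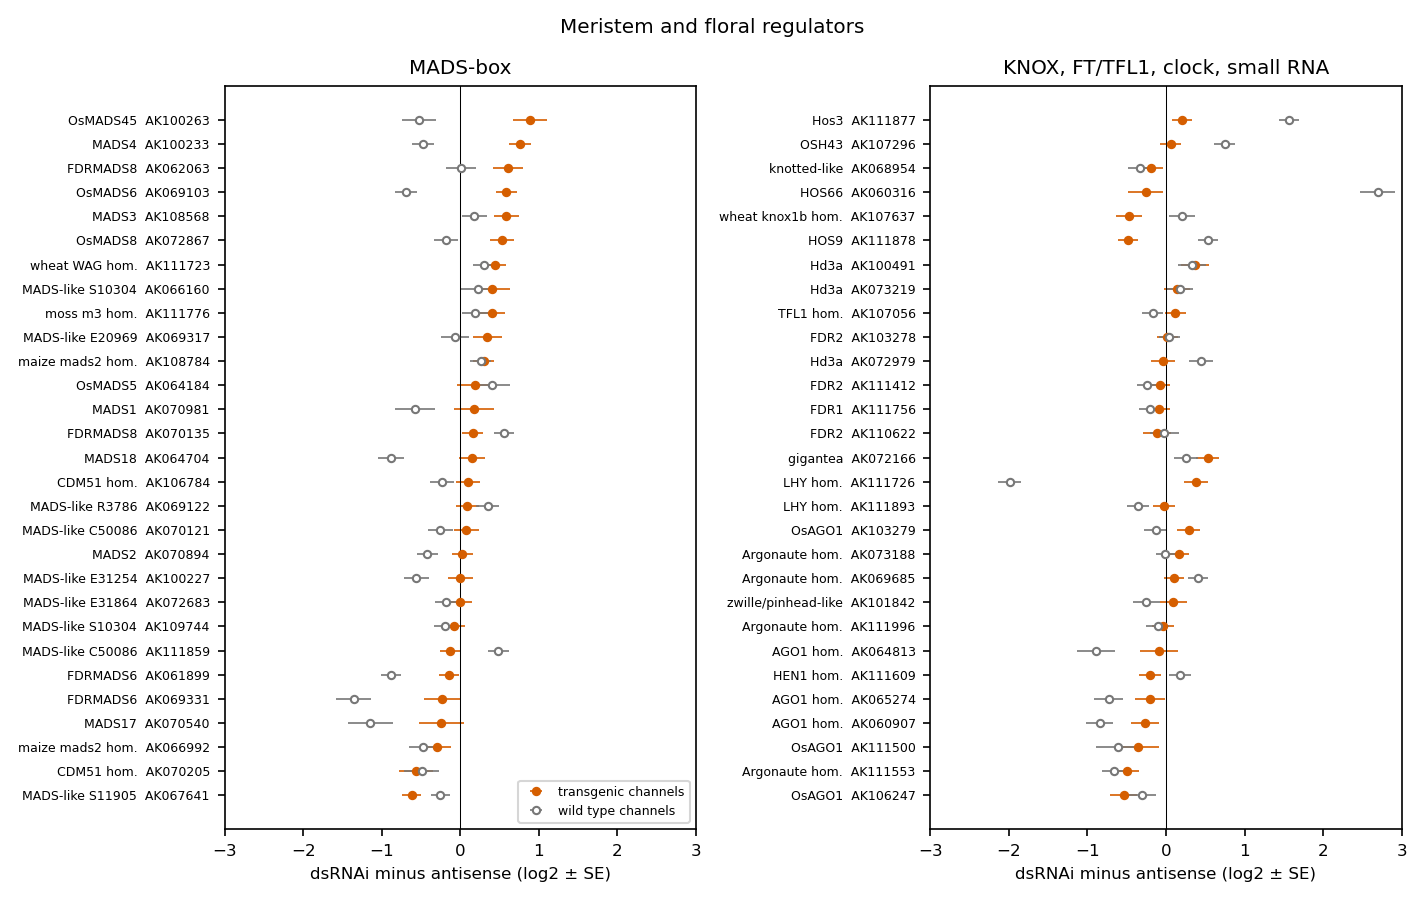
Differences (log2, dsRNAi minus antisense, with SE) of 29 MADS-box cDNAs on the left and of KNOX, FT and TFL1, clock and small RNA cDNAs on the right. Filled points are the transgenic channels and open points the wild type channels of the same arrays. Filled points lie between -0.62 and 0.89, and open points reach -1.99 and 2.70.

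Other regulators were called singly. Of 27 CONSTANS and light signalling cDNAs, 2 were higher and 0 lower in dsRNAi panicles (7.41%, beside 2.45% of all probes), with a median of 0.03. Both are described as CONSTANS-like proteins of barley, CO5 (AK058536) with 11.17 and 11.18 against 10.54 and 10.39 in antisense panicles (0.71 ± 0.13) and CO4 (AK100097) by 0.58 ± 0.12. Their wild type differences were 0.04 and -0.07. The NAC factors OsNAC5 (AK063399, 0.89 ± 0.18) and OsNAC7 (AK109860, 0.68 ± 0.14) were the 2 calls among 31 tested NAC cDNAs (6.45%, beside 2.45% of all probes). The wild type differences of these 2 were 0.17 and 1.79. Spl7 (AK100412), a heat stress transcription factor known from a rice lesion mutant, had 8.25 and 8.31 in dsRNAi panicles and 6.72 and 7.20 in antisense panicles (1.32 ± 0.17, limma adjusted p = 0.00347). Its wild type channels differed by -1.21.

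Of 37 homeobox cDNAs outside the KNOX family, 2 were lower and 0 higher in dsRNAi panicles (5.4%, beside 2.45% of all probes), with a median of -0.07. They were AK109849, described as the Arabidopsis homeobox protein ATH1, with a mean of 9.92 in dsRNAi panicles and 10.60 in antisense panicles (-0.68 ± 0.13), and Oshox6 (AK103160, -0.63 ± 0.13), with wild type differences of 1.28 and -0.26. Of 64 GRAS, SBP, TCP, YABBY and bHLH cDNAs, 0 were higher and 2 lower in dsRNAi panicles (3.12%, beside 2.45% of all probes), with a median of 0.02. Both are described as SBP-domain protein 5 of maize, of a family that acts in panicle branching in rice, AK107191 with a difference of -0.78 ± 0.13 and AK063561 with -0.66 ± 0.13. In the wild type channels these differed by -1.81 and 0.42. MYB (56 tested), WRKY (26), chromatin (48), histone (22), heat shock (84), receptor-like kinase (215) and calcium and MAP kinase (120) lists had 0 calls by limma in either direction in the transgenic channels. At an unadjusted p under 0.05 they held 6, 7, 6, 4, 11, 27 and 17 cDNAs, in the same order, beside 17.2% of all probes. With the replicate block they held 4, 4, 2, 2, 5, 11 and 9 calls, beside 1785 calls among all 17997 probes. The same lists held between 10 and 75 calls each in the wild type channels, in which 32.3% of all probes were called.

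Beside 2.45% of all probes, further lists were called in small numbers. Transporters had 5 higher and 4 lower among 273, glycolysis enzymes 3 and 1 among 48, proteases 0 and 2 among 153, zinc finger proteins 0 and 2 among 104, and ribosomal proteins 0 and 1 among 146. Abscisic acid, dehydrin and LEA genes, which mark drying seeds and stressed tissue, had 1 higher and 0 lower among 24. In the wild type channels 13 of the 24 were called lower on dsRNAi arrays, beside 15.9% of all probes. Markers of anther and pollen (8 tested) and of seed storage (9 tested) had 0 calls by limma and 0 at an unadjusted p under 0.05. With the replicate block they had 0 and 1 calls, beside 1785 among all 17997 probes.

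The deepest fall was that of an alpha-amylase (AK073487), an enzyme that breaks down starch. It had 7.07 and 7.36 in dsRNAi panicles and 9.40 and 9.07 in antisense panicles, which is 4.07-fold lower in dsRNAi panicles (difference -2.02 ± 0.17, limma adjusted p = 0.000281). Its wild type signals were 9.20 and 8.95 on dsRNAi arrays and 14.62 and 14.66 on antisense arrays, a difference of -5.56. Transgenic panicles lay below the wild type of their own arrays in both constructs.

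Proteasome subunits, which form the complex that degrades ubiquitin-tagged proteins, gave 4 lower calls and 0 higher among 57 tested cDNAs, a group chosen after its values were seen. The ubiquitin and proteasome list as a whole had the same 4 calls among 145 (2.76%, beside 2.45% of all probes), with a median of -0.08. OsPAB1 (AK068583), an alpha subunit of the core particle, had 9.15 and 8.86 in dsRNAi panicles and 9.99 and 10.37 in antisense panicles (-1.17 ± 0.17, limma adjusted p = 0.00928). A pair of cDNAs for the alpha subunit OsPAG1, AK061784 and AK103541, differed by -1.0 ± 0.21 and -0.92 ± 0.20. OsRPT3 (AK071476), a regulatory ATPase subunit, differed by -0.74 ± 0.14. All 4 were also lower in the wild type channels of dsRNAi arrays, with differences of -0.87, -0.95, -0.93 and -0.53.

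Other lower calls with small wild type differences were AK100710, described as a cytidine or deoxycytidylate deaminase, with 10.46 and 10.28 in dsRNAi panicles and 11.42 and 11.50 in antisense panicles (-1.09 ± 0.14, limma adjusted p = 0.00325). Such deaminases recycle pyrimidine nucleotides. The ATP/ADP translocator AK073448, which exchanges nucleotides across an organelle membrane, had 12.43 and 12.19 in dsRNAi panicles and 13.33 and 13.57 in antisense panicles (-1.14 ± 0.15, limma adjusted p = 0.00456). AK063749, described as the mitochondrial ribosomal protein L11, differed by -0.98 ± 0.19. AK070990, described as the delta subunit of the mitochondrial F1-ATPase of sweet potato, differed by -0.97 ± 0.16.

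The cDNAs called lower in dsRNAi panicles while the wild type channels were called higher on dsRNAi arrays included some of the widest wild type gaps. An aminotransferase-like cDNA (AK100259) had 12.60 and 12.81 in dsRNAi panicles and 13.44 and 13.49 in antisense panicles, against wild type signals of 10.99 and 11.15 on dsRNAi arrays and 7.60 and 7.14 on antisense arrays. OsMT-1 (AK103162), a metallothionein that binds metal ions, had 13.21 and 13.29 in dsRNAi panicles and 14.24 and 14.04 in antisense panicles, against wild type signals of 10.21 and 10.32 on dsRNAi arrays and 7.81 and 7.18 on antisense arrays. For each, the 4 transgenic signals lay above every wild type signal. Of 7 tested metallothioneins, OsMT-1 AK103162 was the 1 lower call and AK105219 the 1 higher call (0.94 ± 0.18, limma adjusted p = 0.0314, wild type difference 1.22). That is 28.6% of the list, beside 2.45% of all probes, with a median of -0.56 over the list. The transporter cDNA AK058263, described as Cjmdr1 of Coptis, differed by -0.96 ± 0.13 in the transgenic channels and by 0.40 in the wild type channels.

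Several cDNAs differed by the same large amount in the transgenic and the wild type channels. AK106985, described only as an Arabidopsis mRNA sequence (At3g41950), had 12.20 and 12.59 in dsRNAi panicles and 7.94 and 7.69 in antisense panicles, a difference of 4.58 ± 0.17. Wild type channels averaged 12.85 on dsRNAi arrays and 8.25 on antisense arrays, a difference of 4.60. AK109648, described as a rice early proembryo mRNA and picked after its values were seen, differed by 4.37 and 4.44. The clathrin coat assembly cDNA AK062296 differed by 2.74 ± 0.23 and 2.83. Of 11 tested cDNAs with the At3g41950 description, 3 were called higher in dsRNAi panicles and 0 lower, and the other 8 lay between -0.36 and 0.25.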

How the data were processed

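Transgenic and wild type panicle RNA were hybridised together on 4 2-colour Agilent rice arrays. The deposited intensities are scanner output per spot, extracted with Feature Extraction 8.1.1.1 (antisense) or 9.1.3.1 (dsRNAi) per the file headers. Dyes follow the label fields; the labelling text of both swap arrays names the other dye, and log ratios correlated at r = 0.933 within antisense and 0.832 within dsRNAi arrays as read. The series' value table was not used here.

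Mean and background signals were corrected by normexp (offset 50), loess-normalized within arrays and scaled between arrays (Aquantile) in limma 3.58.1 (R 4.3.3, statmod 1.5.0). Control spots had weight 0 in loess and were then dropped. A filter kept 18096 of 21495 probes, those well above background on 2 or more arrays in either channel, and 99 with an outlier spot could not be fitted, which left 17997. One separate-channel fit of the 8 channels (intraspot correlation 0.245) gave the transgenic difference, the wild type difference and the difference of these, with Benjamini-Hochberg adjusted p under 0.05 as the call. All differences are log2, dsRNAi minus antisense. On simulated data with 200 of 17997 probes changed, this comparison recovered 25.4% at 1.5-fold, 76.1% at 2-fold and 95.5% at 4-fold. The simulated noise had the intraspot correlation of 0.245 and no dye or batch effect, so these rates do not cover such effects. With 2 arrays per construct, the number of arrays limits the precision. Figures were drawn with matplotlib 3.10.9.

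cDNAs are named by the array's descriptions, which give the nearest known sequence, often of another species; 0 of 21495 accessions matched the RefSeq table. Named cDNAs are, among called and described ones without overlap of channels and bright in the higher construct, the 10 most higher and lower, the 8 each with a wild type difference within 0.5, the 4 each with an opposite wild type call and the 2 each per list, plus every member of 5 developmental lists (floral MADS-box, KNOX, FT and TFL1, clock, small RNA). Outside this rule, AK058310, AK058788, AK058793, AK065236, AK064795, AK068143, AK060912, AK061410, AK100602, AK101334, AK071476, AK103541 and AK109648 were picked after their values were seen. Members, lists and rule were chosen with earlier results of these data known. Alternatives covered background correction, normalization, filters, saturated spots, a dye term, the transgenic channels alone with and without the dye as a block, the variance trend and each array left out. The text describes only part of the 136 cDNAs this rule names.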

Additional observations from a re-analysis of the deposited data

Results flagged for a closer look

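The transgenic difference between the constructs differed from the wild type difference on the same arrays, by a direct test in limma's separate-channel fit (adjusted p under 0.05), for 3340 of 17997 probes. The values below are the transgenic difference minus the wild type difference (log2, dsRNAi minus antisense) of cDNAs that passed this test among those named as most changed, by their wild type difference or as members of the developmental lists. cDNAs named only as members of another list are left out here, although some of them passed too, such as AK061619 of the photosynthesis list (-1.63). Scan batch and wild type pool coincide with construct, and their part in these values was not tested.

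More positive in the transgenic channels were the P450 AK066760 (3.92), the alpha-amylase AK073487 (3.53), Spl7 AK100412 (2.53), ebp-89 AK073133 (2.52), PBZ1 AK099157 (2.42) and AK071613 (1.70), the LHY homologue AK111726 (2.37), the laccase AK103094 (2.31), CPRD12 AK110700 (2.13), OsGSTU12 AK063773 (2.05), the catalase AK099923 (2.03) and a DNA-binding protein, AK099749 (1.81). For the alpha-amylase this is a smaller fall in the transgenic channels than in the wild type channels. Metabolic cDNAs with values from 1.00 to 1.24 were the copalyl diphosphate synthase AK072928 (1.24), the P450 AK071864 (1.20), FAD2 AK070559 (1.12), the acyl-CoA synthetase AK063337 (1.09) and the chitinase AK059767 (1.00). The MADS-box genes were OsMADS45 AK100263 (1.41), OsMADS6 AK069103 (1.28), MADS4 AK100233 (1.24), FDRMADS6 AK069331 (1.12) and AK061899 (0.73), MADS18 AK064704 (1.03) and OsMADS8 AK072867 (0.72).

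More negative were the aminotransferase-like AK100259 (-4.46), OsMT-1 AK103162 (-3.67) and the KNOX genes HOS66 AK060316 (-2.96), Hos3 AK111877 (-1.37), HOS9 AK111878 (-1.02), OSH43 AK107296 (-0.69) and knox1b AK107637 (-0.68). Further ones were the Cjmdr1-like transporter AK058263 (-1.36), the sulfotransferase AK070507 (-1.36), the peroxidase AK071181 (-1.35), the extensin-like AK071989 (-1.34), the uncharacterised AK063835 (-1.28), a 4-hydroxyphenylpyruvate dioxygenase, AK058890 (-1.20), the deaminase AK100710 (-1.0), the ATP/ADP translocator AK073448 (-0.75) and the MADS box-like AK111859 (-0.61).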

How the results depend on the processing

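Depth of evidence is limited by 2 arrays per construct, each construct scanned as a batch of its own. No called difference between dsRNAi and antisense panicles changed sign in any of the 17 alternatives in which it was tested. In those that changed only the model or the probe filter, a sign could not change. Of the 80 named calls, 9 passed in every alternative in which they were tested: AK106985, AK099157, AK071613, AK103094, AK066760, AK099923, AK071989, AK110700 and AK066070. AK103094 and AK099923 were tested in 16 alternatives and the others in 17. Over the named cDNAs 436 values lost their call, 16 gained one and 0 reversed. Of 2448 list values, 481 moved.

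Against 441 transgenic calls, 28 for photosynthesis and 121 over all lists, loess alone gave 97 calls (90 higher, 7 lower, 4 of these by 2-fold), 3308 wild type calls, 40 over the lists and 11 for photosynthesis. Median centring gave 21 (20 and 1, all by 2-fold), 680 wild type calls, 14 for the difference of differences, classes of 4 (wild type within 0.5), 14 (same way) and 1 (opposite), 9 over the lists and 1 for photosynthesis. A normexp offset of 10 gave 269 calls, 86 lower. Agilent's processed signals gave 215, 43 lower and 159 higher by 2-fold, with classes of 104 (same way) and 19 (opposite), 73 over the lists and 17 for photosynthesis. Requiring all 4 transgenic channels above background left 18 in the class within 0.5. The dye term gave 22 calls (22 higher, 0 lower, 22 and 0 by 2-fold), 2671 wild type calls, 8149 for the difference of differences, classes of 3, 15 and 1, 11 over the lists and 4 for photosynthesis; with it the intraspot correlation was 0.884 in place of 0.245 and the median SE of the transgenic difference 0.174 in place of 0.148, with prior degrees of freedom of 3.01 in place of 6.13.

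The 4 transgenic channels fitted alone gave 445 calls and kept 354 of the 441. With the dye as a replicate block over the 4 transgenic channels there were 1785 calls (752 higher, 1033 lower), 398 over the lists and 32 for photosynthesis. Among members of the developmental lists that did not pass, this setting called OsMADS45, OsMADS6, MADS3, OsMADS8, HOS9 and the gigantea homologue, among others. Of the 17 alternatives, OsMADS45 passed in 4, OsMADS6 in 3, and MADS3, OsMADS8, HOS9 and the gigantea homologue in 1 each. Same-numbered channels share a dye, and their deviations correlated at 0.284 over only 2 pairs, so the numbers are not taken to pair the samples. Leaving out each array in turn, where the lone channel of a construct is assumed to vary like the other groups, gave 78 to 297 transgenic calls, 69 to 206 higher, 9 to 91 lower, 69 to 143 higher and 9 to 40 lower by 2-fold, 3600 to 4575 wild type calls, 1742 to 2383 for the difference of differences, classes of 16 to 48, 37 to 93 and 6 to 13, 32 to 92 over the lists and 7 to 24 for photosynthesis. The cause of these changes was not tested.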
